A study of Mus musculus with 12 samples.

Results

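The genotype by diet interaction is the part of the liver's ethanol response that differs between mice with and without Ppard, which encodes the nuclear receptor PPARβ/δ. For each gene it was the ethanol effect in null mice minus the ethanol effect in wild-type mice, on the log2 scale. All 12 of the 12 arrays of the series entered it, with 3 arrays in each of 4 groups, and 14031 genes were tested. A negative interaction means that ethanol moved the gene less far up, or further down, in null than in wild-type liver. Values are given with standard errors (SE) from limma, and calls are made where the p adjusted by Benjamini-Hochberg over all genes tested is under 0.05.

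Male C57BL/6 mice entered the feeding study at an age of 8 to 10 weeks. The groups were wild-type mice on liquid control diet, wild-type mice on liquid ethanol diet, Pparβ/δ-null (Pparβ/δ-/-) mice on control diet and Pparβ/δ-null mice on ethanol diet. All had 1 week on the control diet, and then 16 weeks on either diet, with ethanol at 4% (v/v). The feeding study held 10 mice per group, and each array has a sample of its own. No label says that the samples come from separate mice, so errors and p-values reflect only how far these samples lie apart, which may be technical. The labels limit the null allele to no cell type, and no source used here says how it was built.

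PPARβ/δ is a ligand-activated transcription factor that pairs with the retinoid X receptor on a spaced repeat of a short motif and controls genes of fatty acid use, glucose handling and inflammation. Hepatocytes oxidise most ethanol through alcohol dehydrogenases, the cytochrome P450 Cyp2e1 and catalase, and then convert acetaldehyde to acetate. Small nucleolar RNAs (snoRNAs), which take a large place below, guide chemical changes of ribosomal RNA. The C/D box class guides methylation of the ribose, the H/ACA class guides pseudouridylation, and scaRNAs do the same for spliceosomal RNA in Cajal bodies. Most are cut out of introns of host genes, many of which encode ribosomal proteins or are non-coding.

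The 12 arrays had median log2 intensities of 5.55 to 5.62, and the dimness filter stood at 5.61 to 5.71. All 12 hepatocyte markers were bright in every group, with group means from 11.09 (Serpina1a) to 14.03 (Alb), and 0 of them had an unadjusted interaction p under 0.05. Ppard had group means of 7.78 and 7.86 in wild-type mice on control and ethanol diet, and of 7.84 and 7.96 in null mice. It was therefore not lower in the arrays labelled null. Where its probes lie relative to the disrupted part is not given, so Ppard checks no label.

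The array wild-type control 2 stood apart from wild-type control 1 and 3. It had the largest distance from its group mean of the 12 arrays (root mean square 0.183 log2, against 0.120 to 0.180 for the others). On the principal components that hold 14% and 12% of the variance it scored -3.55 and -7.63. Wild-type control 1 scored 10.5 and 9.95 there and wild-type control 3 scored 16.9 and 5.61. The wild-type ethanol arrays lay from -16.2 to -4.05 and from -7.89 to -1.95. Null ethanol 3 was almost as far from its own group mean (0.180). It scored 13.4 and -15.7, against 0.873 and -4.07 for null ethanol 1 and 4.00 and -3.73 for null ethanol 2. Of the 3 wild-type control arrays, wild-type control 2 was the nearest to the wild-type ethanol mean for 43.6% of all genes tested. The results below are therefore given on 12 arrays, with the value without this array beside those of the genes and lists described. The array was singled out from its values, so calls without it describe these 11 arrays and are not independent support.

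On 12 arrays the interaction was called for 2 of 14031 genes (0.0143%), and both were C/D box snoRNAs with a negative interaction, Snord53 and Snord111. At an unadjusted p under 0.05 there were 2110 genes (15%), of which 1440 (10.3%) had a negative and 670 (4.78%) a positive interaction. That split depended on the scaling. With all arrays shifted to the same median it was 562 negative against 1882 positive, and after a further quantile normalisation 933 against 961. The all-gene median was -0.04 as deposited and 0.09 with arrays shifted to the same median, a move of 0.13, so lists are read below against the all-gene median. The shift moves every gene's interaction alike, so it cannot change a list's place against that median. Of the 1440 genes with a negative interaction, 1329 had a positive ethanol effect in wild-type and a negative one in null mice. Of the 670 with a positive interaction, 611 had the opposite pair of signs. Over all 14031 genes tested, 4481 had the first pair and 2994 the opposite one. Picking genes by the difference of the 2 effects favours opposite signs, so these counts are no separate result.

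**Figure D1:**
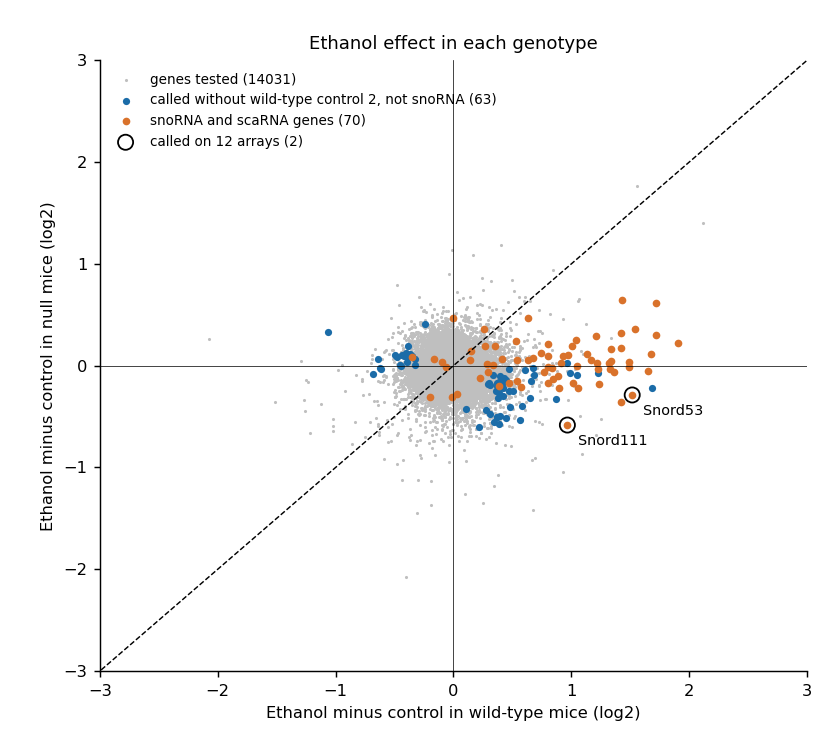
Ethanol minus control in wild-type mice (horizontal, log2) against ethanol minus control in null mice (vertical, log2) for 14031 genes, each from 3 against 3 arrays; the dashed line marks equal effects. The 70 snoRNA and scaRNA genes lie mostly to the right and near a null effect of 0, with median effects of 0.87 in wild-type and 0.04 in null mice.

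Snord53, a C/D box snoRNA in an intron of Wdr43, had log2 intensities of 6.78, 7.26 and 6.90 in wild-type control arrays and 8.46, 8.65 and 8.37 in wild-type ethanol arrays. It had 11.95, 12.00 and 11.90 in null control and 11.87, 11.90 and 11.22 in null ethanol arrays. Every wild-type ethanol array lay above every wild-type control array, while the null ethanol arrays lay just below the null controls, by a gap smaller than the spread among the ethanol arrays. All null arrays lay far above all wild-type arrays, by 4.97 ± 0.17 on control diet (limma adjusted p = 2.33e-09, with 5.1% of all genes called) and by 3.17 ± 0.17 on ethanol diet (adjusted p = 2.34e-07, 1.79% called). Both gaps use the arrays that also give the ethanol effects. Its wild-type ethanol effect was a rise of 1.52 ± 0.17 (2.86-fold, limma adjusted p = 0.00489), and in null mice the difference was -0.29 ± 0.17 (adjusted p = 0.5). The interaction was -1.80 ± 0.24 (limma adjusted p = 0.0484), with a 95% confidence interval from -2.32 to -1.28. It was -1.95 ± 0.24 without wild-type control 2 (adjusted p = 0.00652).

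Snord111, a C/D box snoRNA in an intron of Sf3b3, was dim throughout. It had log2 intensities of 4.73, 4.58 and 4.52 in wild-type control, 5.75, 5.60 and 5.39 in wild-type ethanol, 5.72, 5.87 and 5.92 in null control and 5.54, 5.35 and 4.87 in null ethanol arrays. The wild-type control arrays were the lowest and did not overlap with any other group, and all 3 lay below the dimness filter. So did all 3 null ethanol arrays and wild-type ethanol 2 and 3, so only wild-type ethanol 1 and the null controls were above it. Ethanol raised it in wild-type mice by 0.97 ± 0.15 (limma adjusted p = 0.042), and in null mice the difference was -0.58 ± 0.15 (adjusted p = 0.26). The interaction was -1.55 ± 0.21 (limma adjusted p = 0.0484), with a 95% confidence interval from -2.01 to -1.09. It was -1.54 ± 0.24 without wild-type control 2 (adjusted p = 0.0235). Its levels near background limit this size, and with 16 added to each intensity before log2 it was -1.09 and not called. Shifting all arrays to the same median ended the calls of Snord111 and Snord53.

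Neither call was stable against the loss of 1 array. Snord53 and Snord111 were called when null ethanol 1, null ethanol 3 or wild-type control 2 was left out, and not without any of the other 9 arrays, where no gene was called. Their adjusted p reached 0.228 among these fits, in which the interaction of Snord53 ran from -1.95 to -1.58 and that of Snord111 from -1.69 to -1.36.

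**Figure D2:**
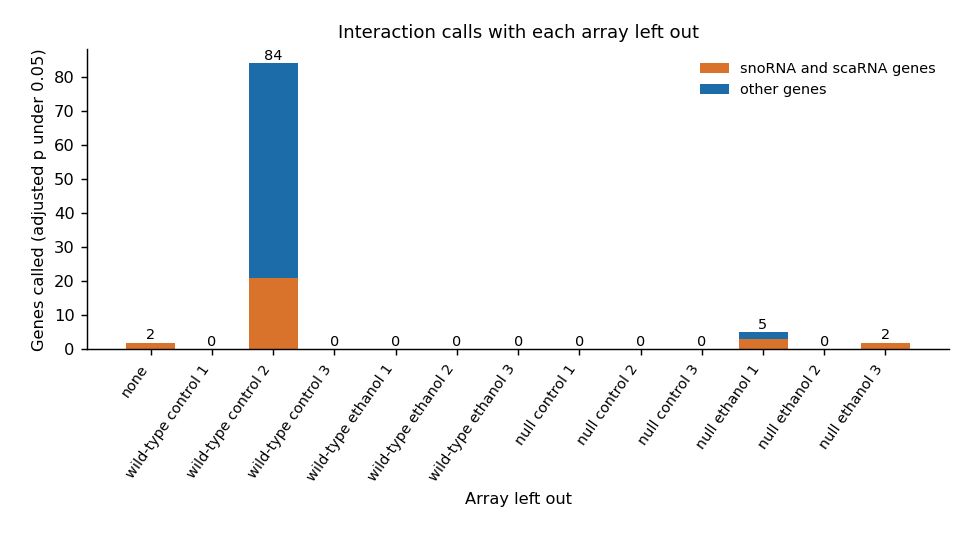
Number of genes called for the interaction (adjusted p under 0.05, limma) with none or each 1 of the 12 arrays left out, with snoRNA and scaRNA genes in orange. The count was 84 without wild-type control 2, of which 21 were snoRNA or scaRNA genes, and 0 to 5 in the other fits.

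Most other snoRNAs also had a negative interaction. SnoRNA and scaRNA genes were picked here by the names Snord, Snora and Scarna. Of 70 snoRNA and scaRNA genes tested, 64 had a negative interaction (91.4%, against 56% of all genes tested), 46 had an unadjusted p under 0.05 in that direction (65.7%, against 10.3%) and 1 in the other (1.43%, against 4.78%). The C/D box class (41 tested, 6 more on the array below the filter) had a median interaction of -0.89, and the H/ACA and scaRNA class (29 tested, 2 below the filter) one of -0.78, against -0.04 for all genes. Both medians stayed below that of all genes after quantile or cyclic loess normalisation and with each array left out. Among the left-out fits they ran from -1.12 to -0.77 and from -0.97 to -0.59. Wild-type mice had a median ethanol effect of 0.87 over the 70 genes, and null mice one of 0.04.

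Array by array, the median log2 intensity over these 70 genes was 7.39, 7.90 and 7.37 in wild-type control, 8.57, 8.65 and 8.42 in wild-type ethanol, 8.61, 8.75 and 8.80 in null control and 9.05, 8.59 and 8.41 in null ethanol arrays. The wild-type control arrays were thus the low group, and the other 3 groups overlapped. In wild-type mice every ethanol array was above every control array for 51 of the 70 genes (10.8% of all genes tested). In null mice that held for 3 of them (5.59% of all genes), and the reverse for 4 (13%). Every null control array was above every wild-type control array for 49 of the 70 (14.6% of all genes), and every null ethanol array above every wild-type ethanol array for 8 (9.74%). These genotype differences use the same arrays as the ethanol effects. Wild-type control 2 lay above wild-type control 1 and 3 for 56 of the 70 genes (32.6% of all genes).

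**Figure D3:**
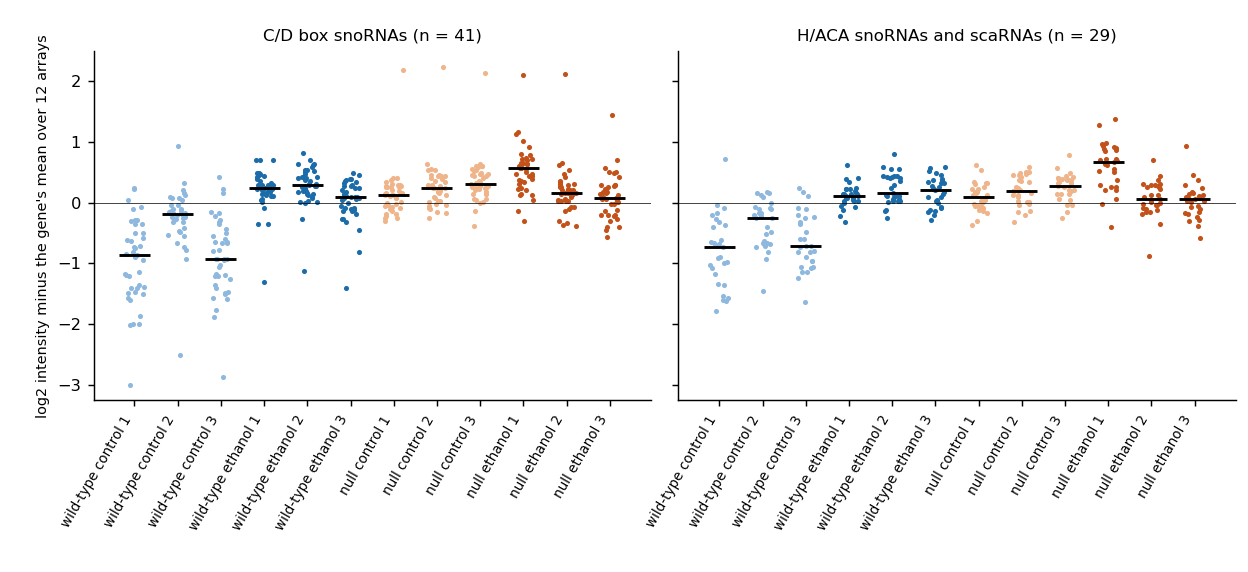
Each point is 1 snoRNA or scaRNA gene on 1 array, as its log2 intensity minus its mean over the 12 arrays (vertical), for 41 C/D box genes (left) and 29 H/ACA and scaRNA genes (right), with black bars at the array medians. The 3 wild-type control arrays lie below 0 at their medians, wild-type control 2 the least so at -0.18 and -0.25.

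Among the C/D box RNAs, Snord69, in an intron of Gnl3, had 7.97, 8.96 and 8.19 in wild-type control and 9.83, 10.06 and 9.71 in wild-type ethanol arrays, with 9.70, 9.74 and 9.87 in null control and 10.02, 9.74 and 9.50 in null ethanol arrays. Only the wild-type control arrays stood apart. Its interaction was -1.51 ± 0.30 (limma adjusted p = 0.17) on 12 arrays and -1.80 ± 0.20 (adjusted p = 0.00522) without wild-type control 2. Snord65 followed with -0.97 ± 0.18 (adjusted p = 0.17) and -1.08 ± 0.18 (adjusted p = 0.0327). Snord43, which had the 1 positive interaction among the snoRNAs with an unadjusted p under 0.05, stood at 0.47 ± 0.21 (0.48 without wild-type control 2), with levels from 5.18 to 6.28 around the filter.

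Among the H/ACA and Cajal body RNAs, Scarna17 had 9.83, 10.19 and 9.37 in wild-type control, 10.66, 10.85 and 10.54 in wild-type ethanol, 10.75, 10.86 and 10.64 in null control and 10.71, 10.43 and 10.47 in null ethanol arrays. Again the wild-type control arrays were lower than all others. Its interaction was -1.11 ± 0.24 (limma adjusted p = 0.17), and -1.31 ± 0.20 without wild-type control 2 (adjusted p = 0.0229). Scarna6 gave -1.18 ± 0.26 and -1.38 ± 0.23 (adjusted p = 0.17 and 0.0327), and Snora68 gave -0.86 ± 0.21 and -1.02 ± 0.18 (adjusted p = 0.176 and 0.0415). Snora23 stood at -1.28 ± 0.28 and did not pass in either fit (adjusted p = 0.17 and 0.0842). A second probe set of Scarna17 had -1.35 on 12 arrays.

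Without wild-type control 2, 21 of the 70 snoRNA and scaRNA genes were called, all negative (30%, against 0.456% of all genes in that direction). Snord82, Snord70 and Snord61, picked out here after their values were seen, had the most negative values among these calls. Snord82 had 9.23, 11.18 and 9.22 in wild-type control arrays, while all 9 other arrays lay between 11.31 and 11.65. Wild-type control 2 was thus close to the other groups for this gene, and its interaction was -1.71 ± 0.54 with that array (limma adjusted p = 0.212) and -2.36 ± 0.17 without it (adjusted p = 0.000215). Snord70 moved from -1.56 ± 0.60 to -2.27 ± 0.27 and Snord61 from -1.78 ± 0.37 to -2.15 ± 0.24. Only 8 snoRNAs (Snord47, Snord53, Snord61, Snord69, Snord70, Snord82, Snord99 and Snord110) and Ppan were called without wild-type control 2 and also in each of 11 fits that left out a further array.

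The transcripts that carry these snoRNAs did not have the same values. Of the 70 genes, 66 lay inside a host gene and 54 of these had a tested host, over 42 different hosts. The median interaction was -0.88 for these 54 snoRNAs and -0.05 for their hosts. Of the 42 hosts, 6 had an unadjusted p under 0.05 in the negative direction (14.3%, against 10.3% of all genes tested) and 3 in the positive one. 0 hosts were called by limma with or without wild-type control 2. Wdr43, which carries Snord53 and serves ribosome assembly, had an interaction of 0.04, and Sf3b3, the splicing factor gene that carries Snord111, had -0.19. Gnl3, which carries Snord69, had 0.18.

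Short structured RNAs without a Snord, Snora or Scarna name were mixed by class. All 5 small nuclear RNA genes tested had a negative interaction (median -0.34), as did both Y RNAs and 2 of 3 ribonuclease P RNAs, while the telomerase RNA gene had 0.01. Of all genes tested, 56% had a negative interaction. The 4 genes described here have the most negative values and were chosen after their values were seen. The 5S ribosomal RNA gene n-R5s136 had 8.87, 10.14 and 9.61 in wild-type control, 10.91, 11.31 and 11.47 in wild-type ethanol, 11.64, 11.42 and 11.42 in null control and 11.76, 11.20 and 10.86 in null ethanol arrays. Its interaction was -1.91 ± 0.40 (limma adjusted p = 0.17) and -2.21 ± 0.36 without wild-type control 2 (adjusted p = 0.0301). Rpph1, the RNA part of ribonuclease P, which trims transfer RNA ends, had -1.30 ± 0.33 (adjusted p = 0.177) and -1.64 ± 0.22 (adjusted p = 0.0122). Rny1, a Y RNA bound by the Ro protein, had -1.57 ± 0.42. Rnu3a, the U3 snoRNA of ribosomal RNA cleavage, which the names used above leave out, had -1.78 ± 0.41. Without wild-type control 2, Rny1 and Rnu3a had -1.56 and -1.94 and were not called. Among the fits that left out 1 array, both were called only without null ethanol 1, which lay at 6.76 and 7.68, while the other null ethanol arrays lay at 5.27 and 5.20 for Rny1 and at 6.33 and 6.39 for Rnu3a.

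MicroRNA genes did not have these values. Of 111 tested, 8 had an unadjusted p under 0.05 in the negative (7.21%, against 10.3% of all genes) and 13 in the positive direction (11.7%, against 4.78%), 0 were called by limma in either fit, and the median interaction was 0.11 (0.10 without wild-type control 2). The array names the gene and not the mature arm. Of the 111 genes, 94 matched the RefSeq miRNA table (GRCm38.p6). The mature sequences below belong to the positive and the negative member described next and show what these genes are known to give rise to, whether or not the array measured it, with the seed (bases 2 to 8) in capitals; no seed is shared between them.
Mir1956, mmu-miR-1956: aGUCCAGGgcugagucagcgga
Mir505, mmu-miR-505-5p: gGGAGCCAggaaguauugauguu
Mir505, mmu-miR-505-3p: cGUCAACAcuugcugguuuucu
Mir1956 (chr3:138526425-138526446, plus strand) had 8.64, 9.0 and 8.86 in wild-type control, 8.69, 8.45 and 8.58 in wild-type ethanol, 8.58, 8.45 and 8.76 in null control and 8.92, 9.11 and 9.36 in null ethanol arrays. The null ethanol arrays lay above the null controls, while the wild-type groups overlapped. Its interaction was 0.79 ± 0.19 (limma adjusted p = 0.176). Mir505 (chrX:60394416-60394437 and chrX:60394451-60394473 for the 3p and 5p arms, minus strand) had an interaction of -1.96 ± 0.64 (adjusted p = 0.22), with null ethanol arrays spread from 8.06 to 10.01. The interactions were 0.71 and -1.90 without wild-type control 2, and neither was called.

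Without wild-type control 2 the interaction was called for 84 genes (0.599%), 64 negative (0.456%) and 20 positive (0.143%). Of these, 57 encode proteins, 38 with a negative and 19 with a positive interaction. Only Ppan of these 57 was also called in each of 11 fits that left out a further array. All 84 had the same sign on 12 arrays, 77 had an unadjusted p under 0.05 there, and 2 were called there. The fit on 12 arrays holds every array that picked these genes, so it is not independent support. In the fit without wild-type control 2 the wild-type ethanol effect was the larger one for 55 of the 64 and 19 of the 20. Over all 14031 genes that was counted only on 12 arrays, where it held for 7112. Leaving that array out widened the wild-type effects over all genes (SD 0.209 to 0.254) and not the null effects (0.186 in both fits). These counts are therefore no separate result. Wild-type control 2 was the control array nearest to the wild-type ethanol mean for 83 of the 84 (98.8%, against 43.6% of all genes tested). Calling genes with that array left out favours genes where it lay near the ethanol arrays, so this share is no separate result. On 12 arrays the ethanol effect was called for 13 genes (0.0927%) in wild-type and 1 (0.00713%) in null mice. The wild-type calls moved to 810 (5.77%) when wild-type control 2 was left out. Null calls were not counted in that fit, so the 810 have no null count beside them.

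Genes known only by a clone or predicted name were passed over in the ranks. The 15 other protein-coding genes with the smallest p among negative interactions fell short on 12 arrays (limma adjusted p = 0.17 for all 15), and 8 of them are described here by function. Tet2, which oxidises methylcytosine in DNA, had 6.93, 7.23 and 6.76 in wild-type control, 7.26, 7.44 and 7.39 in wild-type ethanol, 7.72, 7.69 and 7.44 in null control and 7.10, 6.95 and 7.08 in null ethanol arrays. The ethanol arrays lay above the controls in wild-type and below them in null mice, without overlap in either. Its interaction was -0.96 ± 0.17 on 12 arrays and -1.09 ± 0.15 without wild-type control 2 (limma adjusted p = 0.0122). Kdm4b, a histone H3 lysine demethylase, had -0.63 ± 0.13 and -0.67 ± 0.13 (adjusted p = 0.0481 without that array). Zfp707, a zinc finger gene, had -0.89 ± 0.15 and -0.97 ± 0.14 (adjusted p = 0.0224). Chromatin and DNA methylation enzymes as a list (22 tested, median -0.15) had 5 members with a negative interaction at an unadjusted p under 0.05 (22.7%, against 10.3%) and 0 with a positive one, Tet2 being the 1 called without that array (median -0.14 there). With a further array left out as well, Tet2 was called in 9 of 11 fits, Zfp707 in 5 and Kdm4b in 1.

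Agxt, the peroxisomal transaminase that detoxifies glyoxylate, had 10.95, 11.26 and 10.91 in wild-type control, 11.50, 11.55 and 11.51 in wild-type ethanol, 11.14, 11.08 and 11.03 in null control and 10.82, 10.83 and 10.38 in null ethanol arrays. Ethanol arrays lay above controls in wild-type and below them in null mice. The interaction of Agxt was -0.89 ± 0.18 on 12 arrays and -1.0 ± 0.17 without wild-type control 2 (limma adjusted p = 0.0327). Alkbh7, a mitochondrial dioxygenase of the AlkB family, had -0.70 ± 0.14 and -0.76 ± 0.13 (adjusted p = 0.0378 without that array), and Alkbh6 had -0.73 ± 0.15 and -0.81 ± 0.14 (adjusted p = 0.0358). Tob1, an antiproliferative gene that couples mRNA to deadenylation, had -0.89 ± 0.16 and -0.84 ± 0.16 and was not called in either fit (adjusted p = 0.17 and 0.0503). Mef2d, a transcription factor, had -0.70 ± 0.14 (-0.71 without that array), almost all of it from the null side, where the ethanol effect was -0.62 against 0.08 in wild-type mice. The other 7 of the ranking (Ddx39a, Rogdi, Mcc, Tmem9, Elp5, Pdlim1 and Kcnj8) ran from -0.96 to -0.58, and Rogdi, Mcc and Pdlim1 were called without wild-type control 2 (adjusted p = 0.0327, 0.0415 and 0.0277). With a further array left out as well, Pdlim1 was called in 5 of 11 fits, Agxt and Alkbh6 in 3, Rogdi in 2, and Alkbh7 and Mcc in 1.

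**Figure D4:**
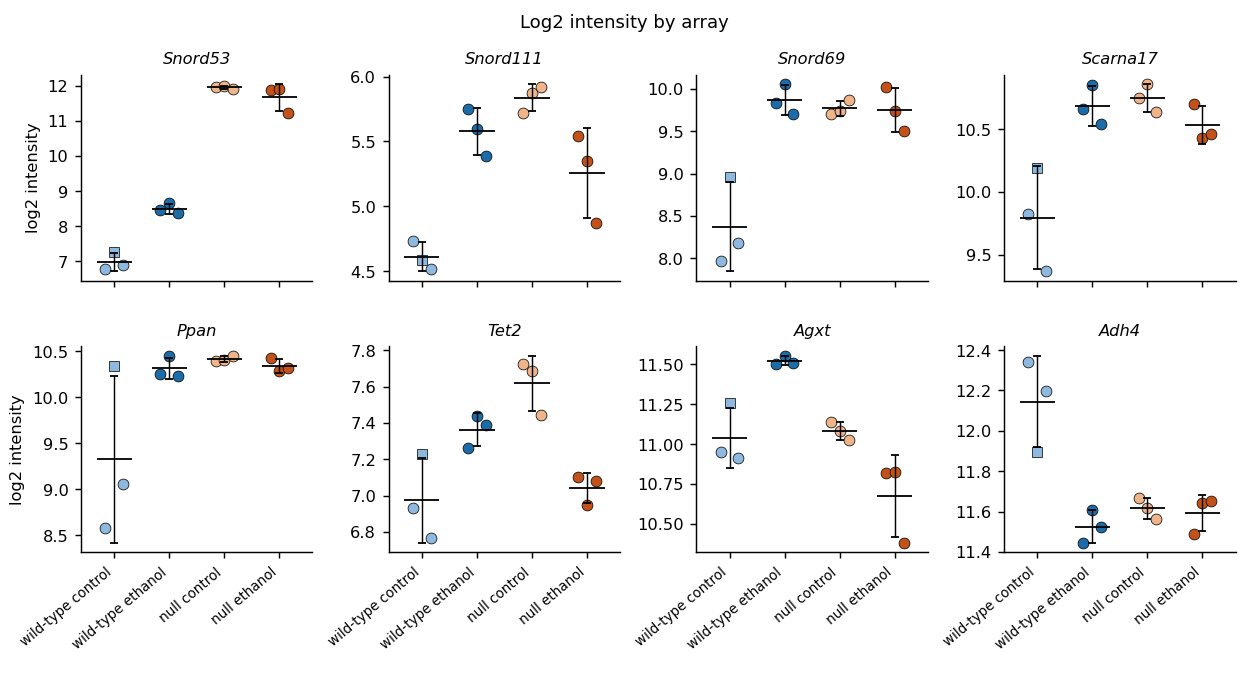
Log2 intensity of 8 genes by group, with 1 point per array (square for wild-type control 2), black bars at the group means and error bars of 1 SD (n = 3); each vertical axis has its own range. For Ppan, wild-type control 2 (10.34) lies with the other groups and not with wild-type control 1 and 3 (8.58 and 9.06).

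Among protein-coding genes called without wild-type control 2, Ppan had the smallest p of those with a negative interaction. Ppan, a ribosome assembly factor, had 8.58, 10.34 and 9.06 in wild-type control arrays, while all 9 other arrays lay between 10.23 and 10.45. Its interaction was -1.06 ± 0.43 on 12 arrays (limma adjusted p = 0.279) and -1.57 ± 0.17 without wild-type control 2 (adjusted p = 0.00522). A second, dimmer probe set of Ppan gave -0.18 on 12 arrays, so its probe sets disagreed. Taf1d, a subunit of the RNA polymerase I selectivity factor whose introns carry snoRNAs, went from -1.15 ± 0.30 to -1.42 ± 0.23 (adjusted p = 0.0301), and its 10 other probe sets ran from -1.22 to 0.02. Syvn1, a ubiquitin ligase that clears misfolded proteins from the endoplasmic reticulum, went from -0.75 ± 0.21 to -0.94 ± 0.16 (adjusted p = 0.0327). Mif, a cytokine, went from -0.66 ± 0.15 to -0.77 ± 0.13 (adjusted p = 0.0327). With a further array left out as well, Taf1d was called in 4 of 11 fits, Mif in 3 and Syvn1 in 2.

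Among protein-coding genes with a positive interaction on 12 arrays, 10 of the 15 with the smallest p were in the dimmest of 4 brightness classes of equal size, where the median of all genes was also above 0 (0.09, against -0.06 in the brightest class). The 10 include Cep152, a centriole protein (0.57 ± 0.12), and Rmi2, a partner of the BLM helicase (0.70 ± 0.15), at limma adjusted p = 0.17. Papola, a poly(A) polymerase, was bright and had 0.55 ± 0.14, which did not pass either (adjusted p = 0.176). Chrm3, the muscarinic M3 receptor, had 7.25, 6.42 and 7.46 in wild-type control, 5.68, 6.05 and 6.20 in wild-type ethanol, 5.01, 5.12 and 5.40 in null control and 5.26, 5.42 and 5.86 in null ethanol arrays. Its interaction was 1.40 ± 0.34 (adjusted p = 0.176), and 1.71 ± 0.26 without wild-type control 2 (adjusted p = 0.0229), with null arrays near or below the filter. Cep152, Rmi2 and Papola had 0.58, 0.72 and 0.61 without that array and were not called. Chrm3 was called in 6 of 11 fits with a further array left out.

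Adh4, an alcohol dehydrogenase that also oxidises retinol, had 12.34, 11.90 and 12.20 in wild-type control, 11.45, 11.61 and 11.52 in wild-type ethanol, 11.67, 11.62 and 11.56 in null control and 11.49, 11.64 and 11.65 in null ethanol arrays. Only the wild-type control arrays were high, and wild-type control 2 was the lowest of the 3. The wild-type ethanol effect was -0.62, the null effect -0.02 and the interaction 0.60 ± 0.16 (limma adjusted p = 0.183). It was 0.72 ± 0.12 without wild-type control 2 (adjusted p = 0.0337). Sfr1, a recombination repair gene, Snx27, a sorting nexin of the retromer, and Dhx29, a helicase of translation initiation, had 0.70 ± 0.32, 0.60 ± 0.17 and 0.46 ± 0.24 on 12 arrays. They had 1.08 ± 0.14, 0.77 ± 0.10 and 0.73 ± 0.11 without that array, and all 3 were called (adjusted p = 0.0122, 0.0124 and 0.0229). For Sfr1 and Dhx29, wild-type control 2 lay at 8.75 and 7.26, next to the wild-type ethanol arrays, while wild-type control 1 and 3 lay at 9.81 or above and at 8.04 or above. The other positive calls in the ranking without that array were Bhlha9, Dcaf13, Ube2k, Norad and Lmbrd2, from 0.60 to 0.82 there and from 0.49 to 0.65 on 12 arrays. Norad, a long RNA that binds Pumilio proteins, had a second probe set at 0.08. With a further array left out as well, Sfr1 was called in 9 of 11 fits, Snx27 in 7, and Dhx29, Bhlha9 and Dcaf13 in 5. Ube2k was called in 3 of these fits, Norad and Lmbrd2 in 2 and Adh4 in 1.

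Of the 15 genes of alcohol and acetaldehyde oxidation, 0 had a negative interaction with an unadjusted p under 0.05, and 1 (Adh4) a positive one (6.67%, against 4.78% of all genes tested), with a list median of 0.00 (0.03 without wild-type control 2). Cyp2e1 lay between 13.89 and 14.03 on all 12 arrays, with an interaction of 0.06 ± 0.10, close to the highest log2 intensities on the arrays. Cyp2b10, a cytochrome P450 under control of the receptor CAR, had 4.96, 5.65 and 5.47 in wild-type control, 7.52, 6.51 and 6.72 in wild-type ethanol, 5.89, 5.58 and 4.69 in null control and 6.63, 8.28 and 6.56 in null ethanol arrays. Ethanol arrays were above controls in both genotypes, and the interaction was 0.21 ± 0.61 (limma adjusted p = 0.895). Cyp2b9, also a CAR target, had 8.33, 8.33 and 8.80 against 9.56, 10.57 and 9.35 in wild-type mice, while its null arrays, at 3.64 to 4.38, were below the filter on both diets. Its interaction was -1.06 ± 0.41, with a null response that could not be measured. Cyp2e1, Cyp2b10 and Cyp2b9 had 0.05, 0.07 and -0.99 without wild-type control 2.

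PPAR target genes had a list median of -0.27 (28 tested, 1 below the filter). It lay below that of all genes by 0.21 to 0.24 as deposited and after quantile or cyclic loess normalisation. Of the 28 genes, 6 had a negative interaction with an unadjusted p under 0.05 (21.4%, against 10.3% of all genes) and 0 a positive one, and 0 were called by limma in either fit. The median was -0.30 without wild-type control 2, and the left-out fits ran from -0.35 (without null ethanol 2) to -0.12 (without null ethanol 3). The acyl-CoA thioesterase gene Acot2 had 9.36, 9.41 and 8.98 in wild-type control, 9.94, 10.20 and 10.27 in wild-type ethanol, 9.88, 10.44 and 10.57 in null control and 10.34, 10.29 and 9.56 in null ethanol arrays. Ethanol arrays lay above controls in wild-type mice, and the null groups overlapped. Its interaction was -1.12 ± 0.31 (adjusted p = 0.191). The related Acot3 had -1.11 ± 0.41 and Acot4 -0.53 ± 0.20, and the peroxisomal thiolase Acaa1b had -0.84 ± 0.32. Acot2, Acot3, Acot4 and Acaa1b had -1.20, -1.24, -0.54 and -0.89 without wild-type control 2, and a second probe set of Acot4 had -0.20 on 12 arrays.

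Among other PPAR targets, Pdk4, a kinase that shuts off pyruvate oxidation, had -0.84 ± 0.43, Angptl4, a lipase inhibitor, -0.33 ± 0.31 and Cpt1a, which moves fatty acids into mitochondria, -0.20 ± 0.13, and none passed (limma adjusted p = 0.372, 0.623 and 0.478). The values without wild-type control 2 were -0.70, -0.43 and -0.28. Null control arrays of Pdk4 alone ran from 7.40 to 8.83. Fabp1, the liver fatty acid binding protein, lay at 13.06 to 13.32 on all arrays, with an interaction of 0.06 ± 0.12 (0.03 without that array). It was the 1 of 23 listed PPAR targets whose RefSeq promoter (a window of 300 bases around the start, GRCm38.p6) holds a spaced repeat, AGGNCA, any base and AGGNCA again, on either strand, which 0.451% of 27025 genes with a promoter hold. The match is shown in capitals, on the strand of the gene, where it reads as the reverse complement, within the stretch chr6:71199787-71199849.
Fabp1: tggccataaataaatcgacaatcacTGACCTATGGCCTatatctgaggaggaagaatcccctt
A match is a description of these letters and not a bound site.

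Immediate early genes, which cells switch on within minutes of a stimulus, had a list median of -0.36 (24 tested). Of these, 7 had a negative interaction with an unadjusted p under 0.05 (29.2%, against 10.3% of all genes) and 0 a positive one, and 0 were called by limma in either fit. The median lay below that of all genes by 0.31 to 0.33 as deposited and after quantile or cyclic loess normalisation. It went to -0.44 when wild-type control 2 was left out, to -0.52 for null control 1 and to -0.21 for null control 3. Dusp1, a phosphatase of MAP kinases, had 9.0, 9.15 and 9.22 in wild-type control, 9.44, 9.10 and 9.13 in wild-type ethanol, 10.64 to 11.41 in null control and 9.49, 9.43 and 10.35 in null ethanol arrays. The null control arrays were the high group, and all 3 lay above the null ethanol arrays. Its interaction was -1.36 ± 0.32 (adjusted p = 0.176), from -1.26 in null and 0.10 in wild-type mice. Jun had -1.45 ± 0.53, with null control arrays from 8.91 to 10.58, Klf10 -0.92 ± 0.32 and Ier2 -0.66 ± 0.20. Dusp1, Jun, Klf10 and Ier2 had -1.38, -1.15, -1.01 and -0.80 without wild-type control 2, where none was called.

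Genes of periportal hepatocytes and the urea cycle had a median of -0.19 (19 tested), with 6 negative interactions at an unadjusted p under 0.05 (31.6%, against 10.3%) and 0 positive ones. Ass1, which joins citrulline to aspartate in the urea cycle, had 6.51, 6.83 and 6.37 in wild-type control, 7.17, 7.03 and 6.62 in wild-type ethanol, 7.18, 7.21 and 6.98 in null control and 6.60, 6.64 and 6.60 in null ethanol arrays. Null ethanol arrays lay below null controls, while the wild-type groups overlapped through wild-type control 2. Ass1 had an interaction of -0.88 ± 0.20 (limma adjusted p = 0.17), and -1.01 ± 0.19 without that array (adjusted p = 0.0481). Hal, which starts histidine breakdown, had -0.55 ± 0.13, and Igfals, a carrier of insulin-like growth factors, -0.54 ± 0.19. In amino acid catabolism (27 tested, median -0.14) 6 were negative at an unadjusted p under 0.05 (22.2%) and 0 positive. Got1, the cytosolic aspartate transaminase, had -0.65 ± 0.21, from -0.74 in null and -0.09 in wild-type mice. The medians of these lists were -0.25 and -0.19 without wild-type control 2, where Hal, Igfals and Got1 had -0.56, -0.64 and -0.74 and were not called. Ass1 was called in 1 of 11 fits with a further array left out.

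Protein synthesis and respiration lists had small negative medians spread over many members. Cytosolic ribosomal proteins had a median of -0.17 (56 tested), with 16 negative at an unadjusted p under 0.05 (28.6%, against 10.3% of all genes) and 0 positive. Rplp1, a stalk protein, had 11.62, 11.54 and 11.44 in wild-type control, 11.96, 11.92 and 11.98 in wild-type ethanol, 11.89, 12.06 and 12.00 in null control and 11.89, 11.95 and 11.91 in null ethanol arrays. The wild-type control arrays were below all others, as for the snoRNAs, and the interaction was -0.48 ± 0.12 (limma adjusted p = 0.176). Mitochondrial ribosomal proteins had a median of -0.14 (69 tested, 12 or 17.4% negative and 0 positive), led by Mrpl14 at -0.58 ± 0.13. Oxidative phosphorylation subunits had a median of -0.17 (68 tested, 14 or 20.6% negative and 1 or 1.47% positive), led by Uqcrc1 of complex III at -0.50 ± 0.13. With arrays shifted to the same median these 3 medians were close to 0 (-0.04 for the cytosolic ribosome and for oxidative phosphorylation). Their place below all genes, by 0.05 to 0.13, was found as deposited and after quantile or cyclic loess normalisation. The shift to the same median cannot change that place. Ndufa7 of complex I was called, the only member of these 3 lists to be so, at -0.62 ± 0.11 without wild-type control 2 (adjusted p = 0.0377). Without that array the medians were -0.19, -0.14 and -0.21 in the order given, and Rplp1, Mrpl14 and Uqcrc1 had -0.49, -0.61 and -0.56. Leaving out null control 1 took the cytosolic ribosome to -0.26, and null control 2 to -0.10. A second, dim probe set of Rplp1 had -0.77. Ndufa7 was called in 1 of 11 fits that left out a further array besides wild-type control 2.

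Other metabolic lists differed in how far their members shared a direction. In NAD metabolism (16 tested, median -0.14), 5 were negative at an unadjusted p under 0.05 (31.2%, against 10.3%) and 1 positive. Nmrk1, a nicotinamide riboside kinase, had -1.04 ± 0.28 and Nadsyn1, which makes NAD from its acid form, -0.69 ± 0.18. Nampt, the rate-limiting enzyme of the salvage route, had 9.95, 9.43 and 9.69 in wild-type control, 9.56, 9.51 and 9.81 in wild-type ethanol, 9.98, 9.48 and 9.51 in null control and 10.26, 10.12 and 10.20 in null ethanol arrays. The null ethanol arrays were the highest, and the interaction was 0.60 ± 0.21 (limma adjusted p = 0.244). Peroxisome biogenesis had a median of -0.28 (14 tested, 4 or 28.6% negative and 0 positive), led by Pex19 at -0.49 ± 0.16. Glucose output, glycolysis and insulin signalling had -0.23 (22 tested, 6 or 27.3% negative and 0 positive), led by the insulin receptor substrate Irs1 at -0.64 ± 0.16. NRF2 targets had -0.25 (17 tested, 2 negative and 0 positive), with Gsta4, a glutathione transferase for lipid aldehydes, at -0.91 ± 0.27. Their negative share (11.8%) was near that of all genes. The 4 list medians were -0.11, -0.30, -0.23 and -0.21 in the order given without wild-type control 2, and NAD metabolism ran to -0.24 without null control 2. Nmrk1, Nadsyn1, Nampt, Pex19, Irs1 and Gsta4 had -1.19, -0.73, 0.73, -0.52, -0.66 and -1.08 without wild-type control 2, and none was called. A second, dim probe set of Irs1 had 0.17 on 12 arrays.

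Pdxk, the kinase that makes the active form of vitamin B6, had an interaction of -0.28 ± 0.19 (limma adjusted p = 0.495), and Alpl, a phosphatase that releases pyridoxal, -0.50 ± 0.15. Alpl was called without wild-type control 2 (-0.62 ± 0.12, adjusted p = 0.0481), in 0 of 11 fits with a further array left out, and its second probe set gave -0.13. Blvrb, a biliverdin reductase, had 8.87, 8.78 and 8.76 in wild-type control, 9.41, 9.43 and 9.39 in wild-type ethanol, 8.93, 9.05 and 9.10 in null control and 9.31, 9.07 and 8.97 in null ethanol arrays. The diets were separated in wild-type and overlapped in null mice, with an interaction of -0.52 ± 0.14 that was not called (adjusted p = 0.185). Hsd3b5, a steroid dehydrogenase expressed in male liver, had an ethanol effect of -2.08 in null and -0.40 in wild-type mice. Its null ethanol arrays lay at 7.10, 9.18 and 9.38, and the interaction was -1.68 ± 0.68 (adjusted p = 0.279). Female-biased liver genes had a median of -0.49, but only 11 of 18 passed the filter, 2 of them negative at an unadjusted p under 0.05 (18.2%, against 10.3%). The median was -0.33 without wild-type control 2 and ran from -0.64 (without wild-type ethanol 2) to -0.032 (without null control 1), where it was not below that of all genes. Pdxk, Blvrb and Hsd3b5 had -0.27, -0.51 and -1.60 without that array.

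Acute phase proteins (21 tested, median 0.10) had 4 positive interactions at an unadjusted p under 0.05 (19%, against 4.78% of all genes) and 0 negative ones. The median was 0.14 without wild-type control 2 and turned to -0.036 without wild-type control 3 or null ethanol 2. Saa2, a serum amyloid, had 8.68, 10.19 and 11.11 in wild-type control, 7.25, 7.78 and 8.73 in wild-type ethanol, 7.66, 6.62 and 7.04 in null control and 6.74, 8.53 and 6.84 in null ethanol arrays. The wild-type control arrays spread widely, and the groups overlapped in both genotypes. Its interaction was 2.34 ± 0.84 (limma adjusted p = 0.247). Steap4, a metalloreductase, and Fgl1, a hepatocyte secreted factor, had 0.82 ± 0.28 and 1.0 ± 0.38. Cholesterol synthesis genes (19 tested) had a median of 0.21 with 1 negative (5.26%, against 10.3% of all genes) and 0 positive members at an unadjusted p under 0.05. The left-out fits ran from -0.10 to 0.29, the values below 0 being those without wild-type control 3 (-0.089) and without null control 3 (-0.10). Cholesterol synthesis had 0.22 without wild-type control 2, and Saa2, Steap4 and Fgl1 had 2.24, 0.87 and 1.14, with none called.

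Interferon-stimulated genes (29 tested) had a median of -0.05 on 12 arrays and -0.35 without wild-type control 2. Their median deviation on that array was 0.51, against -0.10 and 0.00 on the other wild-type control arrays. On 12 arrays 1 was negative and 1 positive at an unadjusted p under 0.05 (3.45% each, against 10.3% and 4.78% of all genes). Without wild-type control 2, 6 were negative, in a direction that holds 12% of all genes tested. Bst2, which tethers viruses at the cell surface, had -0.61 ± 0.17 (limma adjusted p = 0.191), and the sensor Oas3 had 0.52 ± 0.19. They had -0.65 and 0.50 without wild-type control 2, neither called.

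In bulk tissue, fewer cells of a type and less of an RNA per cell cannot be told apart. Of 18 macrophage and Kupffer cell markers tested, 16 had an interaction above 0, while 56% of all genes were below 0. Their median interaction was 0.16 (0 with an unadjusted p under 0.05 in either direction), with array medians from -0.70 to 0.52 around each gene's mean. That median was 0.11 without wild-type control 2 and ran from 0.068 (without null ethanol 3) to 0.23 (without null ethanol 1). Stellate cell and matrix markers had -0.27 (18 tested), with 17 below 0 (as were 56% of all genes) and 5 negative at an unadjusted p under 0.05 (27.8%, against 10.3%). Sparc, a matrix glycoprotein, had 8.13, 8.16 and 7.95 in wild-type control, 8.10, 8.44 and 8.27 in wild-type ethanol, 8.58, 8.67 and 8.56 in null control and 8.13, 8.36 and 8.38 in null ethanol arrays. Its null controls were the highest, and the interaction was -0.51 ± 0.15 (limma adjusted p = 0.206). Sinusoidal endothelial markers had a median of -0.17 on 12 arrays and without wild-type control 2 (16 tested, 1 negative at an unadjusted p under 0.05), which ran from -0.35 (without null ethanol 3) to -0.044 (without null ethanol 2). Of the markers of neutrophils, adipocytes, erythroid cells, exocrine pancreas and skeletal muscle, 3, 4, 1, 2 and 3 were above the filter, and their part in the results was not tested. Stellate markers had a median of -0.25 and Sparc had -0.55 without wild-type control 2.

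**Figure D5:**
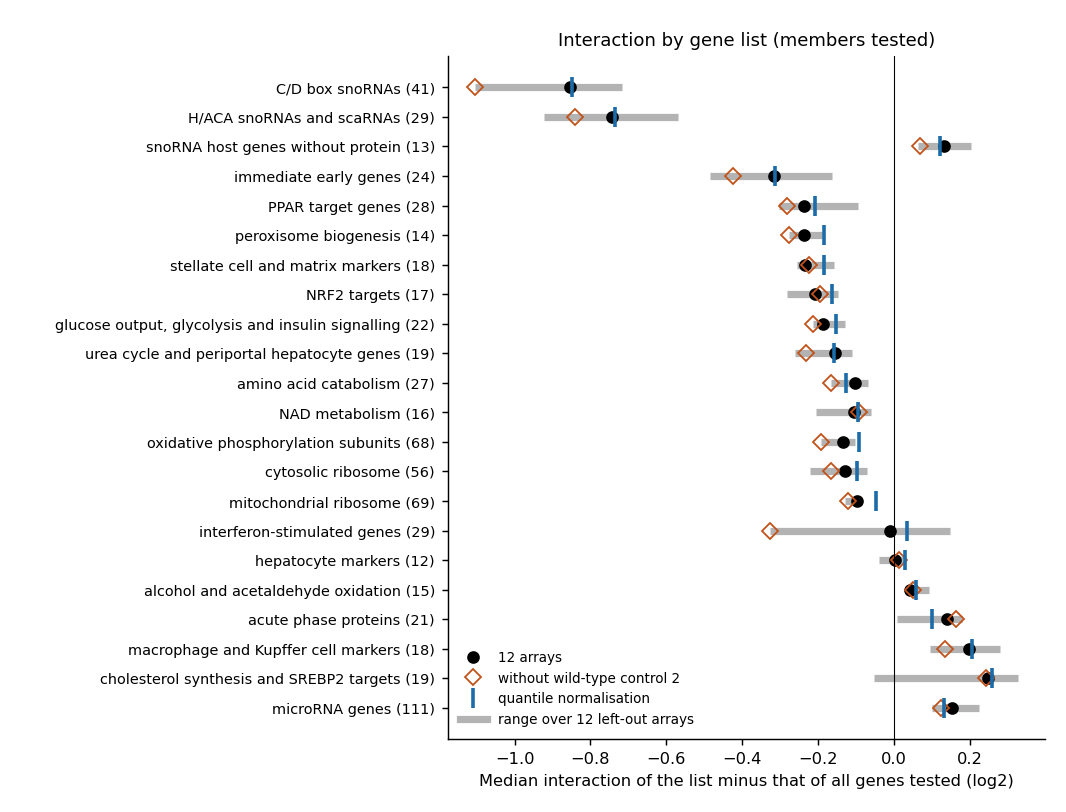
Median interaction of 22 gene lists minus the median of all genes tested (horizontal, log2), on 12 arrays (black), without wild-type control 2 (open diamonds) and after quantile normalisation (blue), with grey bars for the range over 12 left-out arrays; members tested are in brackets. The snoRNA classes lie farthest from 0, at -0.85 and -0.74, and interferon-stimulated genes move most between the fits with and without wild-type control 2.

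Over 62 lists with at least 10 members tested, 42 had a median below that of all genes on 12 arrays. For 23 lists it stayed below, and for 12 above, after quantile or cyclic loess normalisation and with each array left out. The lists share genes, and many hold bright transcripts. The all-gene median moved with brightness, from 0.09 in the dimmest brightness class to -0.06, -0.12 and -0.06 in the next 3. Groups of genes set by brightness alone thus also had medians away from that of all genes (-0.04). The part of brightness in the list medians was not tested. The interaction also moved with gene length: among 4 length classes of protein-coding genes, 14.4% of the shortest class and 7.25% of the longest had a negative interaction at an unadjusted p under 0.05. The protein-coding genes called without wild-type control 2 had a median span of 10.6 kb when negative and 34 kb when positive, against 22.2 kb for all protein-coding genes tested.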

How the data were processed

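Liver RNA of 12 samples was measured on 1 Affymetrix Mouse Gene 2.0 ST array each. The authors deposited probe set intensities on a linear scale (1.816 to 20155.988). RMA was used to make them, per the submitters' processing notes, and no source used here names the genome build of the probes. Log2 was taken here, with no further normalisation. Of 41345 probe sets, 23521 have 1 annotated gene, and the brightest on average stood for each of 22180 genes. The 14031 genes above their array's 40th percentile on at least 3 arrays were fitted with limma 3.58.1 (R 4.3.3; a mean per group, eBayes), and p-values were adjusted by Benjamini-Hochberg within each of 5 comparisons. The fit was tested on simulated data.

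Genes named are Ppard and 6 genes of ethanol and PPAR biology, those called, the 15 genes per direction with the smallest p, the 10 per direction with the smallest p without wild-type control 2, and up to 4 per list with the smallest p; predicted genes, clone (Rik) names, microRNAs, receptor families and snoRNAs were passed over in the ranks. Members and lists were chosen with earlier results of these data known. Lists are described by counts and medians, with no test. Other settings were filters, scalings, offsets, probe set choice, moderation, array weights, a replicate block and each array left out; cyclic loess was chosen after seeing the data. Replicate numbers have no stated meaning. Deviations of same-numbered arrays correlated at -0.15 to 0.19, over 0.1 in 2 of 18 pairs, and those of differently numbered arrays at -0.15 to 0.21. With 3 arrays per group these values cannot exclude a pairing. Motif matches and miRNA sequences come from RefSeq tables (GRCm38.p6), with chromosome 18 left out of the motif scan. The number of arrays limits the precision.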

Additional observations from a re-analysis of the deposited data

Results flagged for a closer look

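The ethanol effects of Snord53 and Snord111 differed between genotypes by the test of the interaction itself. The interaction was -1.80 for Snord53 and -1.55 for Snord111, at limma adjusted p = 0.0484 for both. For Snord111 all wild-type control and null ethanol arrays lay below the dimness filter, so this is a difference between values near background.

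Without wild-type control 2 the same test called 84 genes. That array was singled out from its values, and it lay nearest of the wild-type control arrays to the wild-type ethanol mean for 83 of them. Calling genes with that array left out favours such genes, so this count is no separate result.

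Probe sets with no gene listed entered no comparison above. Of 5868 above the filter, 0 were called by limma on 12 arrays, where 494 had a negative and 369 a positive interaction at an unadjusted p under 0.05. Without wild-type control 2, 27 were called, 25 of them negative. What they measure was not tested.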

How the results depend on the processing

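The 2 calls on 12 arrays stood with trend and robust moderation, mean probe sets, quantile normalisation, cyclic loess and the replicate block. There were 0 with a 60th percentile filter, an offset of 16, arrays shifted to a common median or small RNA genes left out, 1 with trend alone, 1 with no filter on dim genes (H2-M10.1) and 38 with array weights. Leaving out 1 array gave 0 to 84, with 84 without wild-type control 2 and 5 without null ethanol 1. Without wild-type control 2, the 84 calls became 24 with no filter, 287 with the 60th percentile filter, 230 with trend, 369 with array weights, 12 with the replicate block and 5 with small RNA genes left out. Leaving out a further array gave 10 to 96. The cause of these changes was not tested. The interaction of Ppard turned from 0.04 to -0.078 with array weights, and ran from -0.076 to 0.11 among left-out arrays, below 0 without null control 1, null ethanol 3, wild-type ethanol 2 or wild-type control 2. That of Cyp2b10 ran from -0.35 to 0.51, below 0 without null control 3 or null ethanol 2. Dim genes such as Snord111 have folds limited by background.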
